A study of Micropterus salmoides with 18 samples.

Results

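Testis was compared with ovary in largemouth bass (Micropterus salmoides, a freshwater sport and aquaculture fish) that had been kept at 20 °C for 28 days. The comparison used 6 of the 18 gonad RNA sequencing libraries of the study, 3 labelled NC-M and 3 labelled NC-F, and the libraries were chosen by these labels alone. In the study, 216 fish were held in 12 tanks of 18 with the sexes apart. Control tanks stayed at 20 °C, heated tanks were at 28 °C, and gonads were taken at day 0 (IC) or at day 28 from control (NC) or heated (HT) tanks. The letters F and M mark female and male. NC-F and NC-M therefore shared the temperature and the time, and differed in the labelled sex. With the sexes held apart, they also differed in tank, so effects of tank and sex cannot be told apart. The labels give no strain, age or other treatment. Whole gonads were used, so each value is a mix of germ cells and somatic cells, and in such samples fewer cells of a type and less RNA per cell cannot be told apart. The labels do not tell whether libraries with the same group name are different fish. The p-values therefore rest on library-to-library spread, part or all of which may be technical.

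A fish ovary is filled with oocytes, which store yolk, lay down an egg coat of zona pellucida proteins and load maternal mRNA for the embryo. Follicle cells around them make oestrogen. In the testis, Sertoli cells nurse cysts of germ cells through mitosis, meiosis and spermiogenesis, in which a flagellum is built around an axoneme of microtubules. Leydig cells, which lie in the tissue outside the cysts, make androgen.

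The values were FPKM, fragment counts scaled to the length of the gene and to the mapped fragments of the library, so levels are given per length. The sequencing depth is unknown from such values. Differences were computed as NC-M minus NC-F after taking log2(FPKM + 1), so that folds of genes with low values are understated. A gene was called when limma's test gave a Benjamini-Hochberg adjusted p under 0.05 over the 20534 genes with at least 1 FPKM in at least 3 of the 6 libraries. The NC-M libraries had more genes at 1 FPKM or more, 20689 to 21638, than the NC-F libraries, with 15345 to 15536. Correlations of log2 values across genes were 0.987 to 0.990 between NC-F libraries and 0.409 to 0.460 between the groups.

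Gonad genes matched the labels of these 6 libraries. The 4 zona pellucida genes summed to 2099, 1917 and 1893 FPKM in NC-F 1, 2 and 3, and to 13.8, 18.0 and 15.3 FPKM in NC-M 1, 2 and 3. The male fate gene dmrt1 stood at 0.04, 0.07 and 0.07 FPKM in NC-F and at 63, 54.2 and 58.3 FPKM in NC-M. The letters of the other 12 libraries went against the same genes: zona pellucida genes summed to 1168 to 1536 FPKM in the libraries labelled IC-M and HT-M, and to 7.93 to 18.9 FPKM in those labelled IC-F and HT-F. Where day 0 or 28 °C is used below, testis genes are therefore read in the libraries labelled IC-F and HT-F.

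The NC-M libraries did not look alike. NC-M 1 and 2 correlated at 0.942, whereas NC-M 3 correlated with them at 0.861 and 0.873. Of 3148 genes with a mean of at least 20 FPKM in NC-M, 1015 ranged over at least 1 log2 unit among the 3 libraries, against 2 of 3464 in NC-F. Sperm-tail structure genes summed to 2844, 2763 and 7213 FPKM in NC-M 1, 2 and 3, beside 13452 to 13789 in the libraries labelled IC-F. Meiosis genes summed to 819, 1132 and 2512 FPKM, and M phase genes to 1249, 1456 and 5780 FPKM, in the same order. Cytosolic ribosomal protein genes went the other way, with 267842, 248287 and 116166 FPKM, and so did the testis fate and somatic genes, with 853, 935 and 534 FPKM. NC-M 3 was thus highest for the meiosis, M phase and tail lists and lowest for the fate and somatic list. Counts without it are given below for many lists, and a list printed without them may still move. The part of this split in each result beyond those counts was not tested.

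**Figure D1:**
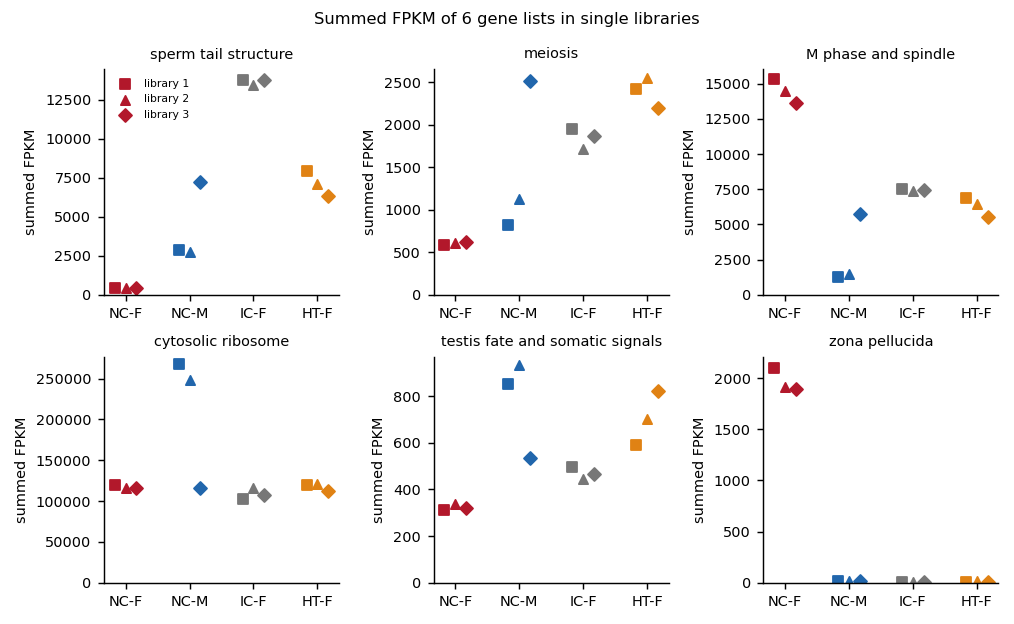
Summed FPKM (vertical axis, from 0) of 6 gene lists in single libraries of NC-F, NC-M and, for comparison, of the libraries labelled IC-F and HT-F, which held testis genes; each marker is 1 library. NC-M 3 lies apart from NC-M 1 and 2 in every panel but that of zona pellucida genes, where all testis libraries are under 20 FPKM.

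The sexes differed in most genes. Of the 20534 genes tested, 15415 (75.1%) were called, 9182 (44.7%) higher in NC-M and 6233 (30.4%) higher in NC-F. Without NC-M 3 the counts were 9771 (47.6%) and 7167 (34.9%). The median gene was 0.42 log2 units higher in NC-M. The balance turned among the largest differences: at an absolute log2 difference of at least 2, 4222 genes were higher in NC-M and 2294 in NC-F, but at 6 or more, 128 were higher in NC-M and 219 in NC-F. Any list would therefore be expected to hold many called genes, and each list below is to be read beside 44.7% and 30.4%. A gene that was at 1 FPKM or more in all libraries of one group and below it in all of the other passed the filter only through the group where it was high. Without such genes, 14546 were left, of which 4465 (30.7%) were higher in NC-M and 4999 (34.4%) in NC-F. Several lists with many such genes are also given without them. FPKM are shares of a library, so a large gain of some transcripts lowers all others.

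The most abundant transcripts also differed. In the ovary, rspry1, a gene of SPRY and RING domains, came first, with 10334, 8471 and 8912 FPKM in NC-F and 96.4, 465 and 89.2 FPKM in NC-M (log2 difference -5.85, SE 0.64, adjusted p = 0.000246). tmsb4x, a thymosin that binds actin, had 7208, 5942 and 5680.2 against 474, 493 and 281 FPKM. pttg1, a securin gene, had 3746, 3142 and 2716 against 61.3, 44.8 and 414 FPKM. In the testis, 7 of the 10 most abundant genes with a symbol belonged to the mitochondrial genome and 3 to the cytosolic ribosome. NC-M 2 was the highest testis library for rspry1, and NC-M 3 for pttg1.

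Egg coat and maternal-effect genes were among the largest ovary differences. zpcx, an egg coat glycoprotein gene, had the largest, with 894, 851 and 736 FPKM in NC-F 1 to 3 and 0.06, 0 and 0 FPKM in NC-M 1 to 3 (log2 difference -9.66, SE 0.13, adjusted p = 1.03e-07). Genes of this ranking had to have NC-F and NC-M libraries that do not overlap, so this separation was a condition of the choice. All 4 zona pellucida genes of the table were higher in NC-F: zpax1 differed by -7.91, zpd by -5.55 and zp3d.2 by -4.93 on the log2 scale. In NC-M 1 to 3, zpd kept 6.74, 8.04 and 6.38 FPKM and zp3d.2 5.81, 8.75 and 7.83 FPKM, so these transcripts were not confined to the ovary libraries.

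Of 42 tested genes for maternal effect and control of oocyte mRNA, 26 were higher in NC-F and 5 in NC-M (29 and 7 without NC-M 3). The median was -1.76, and 7 reached 1 FPKM only in NC-F. Among the other 35, 19 (54.3%, against 34.4% of such genes in all) were higher in NC-F and 5 in NC-M, with a median of -0.899. zar1 and zar1l, RNA-binding proteins of the oocyte-to-embryo transition, led this list together with btg4, an adaptor that in mouse brings the deadenylase complex to maternal mRNA. zar1 had 1209, 1064 and 1081 FPKM in NC-F and 1.68, 2.54 and 1.5 FPKM in NC-M (log2 difference -8.6, SE 0.17, adjusted p = 3.56e-07). zar1l had 931, 859 and 818 against 0.96, 0.49 and 0.12 FPKM, and btg4 616, 635 and 542 against 0.14, 0.15 and 0.45 FPKM. All 3 genes were above 540 FPKM in every ovary library and under 3 FPKM in every testis library. ybx1, a cold-shock-domain mRNA-binding protein, went the other way, with 258, 289 and 294 FPKM in NC-F and 1437, 1113 and 1313 FPKM in NC-M (log2 difference 2.19, SE 0.18, adjusted p = 7.11e-05). Leaving out single libraries moved the smaller of the 2 counts between 3 (without any 1 NC-F library or NC-M 2) and 7 (without NC-M 3).

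The factors that oocytes use for transcription and signalling showed the same side. Of 12 tested, 9 were higher in NC-F and 1, tp63, in NC-M (2 without NC-M 1), and the list's median was -4.55. Of the 12, 6 reached 1 FPKM only in NC-F and 1 only in NC-M, and so had to differ. Among the other 5, 3 were higher in NC-F and 0 in NC-M, with a median of -0.743. gtf3ab, which encodes a TFIIIA for transcription of 5S ribosomal RNA, had 994, 995 and 854 FPKM in NC-F and 1.02, 0.9 and 0.49 FPKM in NC-M (log2 difference -9.05, SE 0.16, adjusted p = 2.65e-07). The oocyte growth factors gdf9 and bmp15 had 61.8, 68.6 and 76.1 and 90.3, 121 and 80.6 FPKM in NC-F 1 to 3, and no NC-M library passed 1 FPKM for either. For sox19b, a SoxB factor that fish eggs carry as maternal mRNA, the values were 122, 146 and 121 against 0.16, 0.15 and 0.28 FPKM. figla, a helix-loop-helix factor that drives zona pellucida genes in mammals, is named here after its values were seen, with 80.5, 66.5 and 49 FPKM in NC-F and 3.51, 16.3 and 44.9 FPKM in NC-M (log2 difference -2.09, SE 0.79, adjusted p = 0.0473). Its NC-M 3 value lay just under the lowest ovary library, and its adjusted p was close to the threshold. The list's count in NC-F fell to 8 when any 1 NC-F library, NC-M 1 or NC-M 2 was left out. tp63, of the p53 family, had 0.17, 0.25 and 0.09 FPKM in NC-F and 20.3, 28.1 and 27.2 FPKM in NC-M (log2 difference 4.47, SE 0.20, adjusted p = 7.94e-06).

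The 15 largest ovary differences held further genes, among them acp5a, a tartrate-resistant acid phosphatase gene (-7.73), and 3 genes with clone-type symbols. kpna7, an importin alpha of oocytes, had 792, 727 and 784 against 0.4, 0.69 and 0.11 FPKM. map1lc3c, of the LC3 family that coats autophagosomes, had 1008, 951 and 902 against 1.22, 0.98 and 0.51 FPKM. Also there were acsl5, which activates long-chain fatty acids (-8.85), and elovl6l, related to a fatty acid elongase (-7.9). tlr18, a Toll-like receptor of fish, came second, with 855, 789 and 703 FPKM in NC-F and 0.92, 0.15 and 0 FPKM in NC-M (log2 difference -9.23, SE 0.26, adjusted p = 1.33e-06). Libraries that do not overlap were a condition for this ranking, so the separation of the groups in these genes adds no further evidence.

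**Figure D2:**
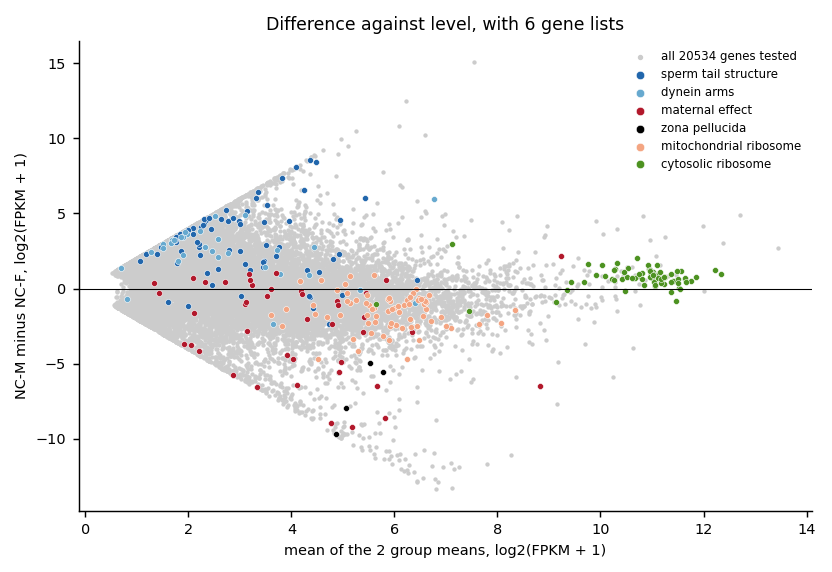
Difference NC-M minus NC-F against the mean level, both on the log2(FPKM + 1) scale, for all 20534 genes tested (grey points) and 6 gene lists (coloured points). Sperm-tail and dynein-arm genes lie mostly above 0, zona pellucida and most maternal-effect genes below it, and mitochondrial and cytosolic ribosomal protein genes on different sides of 0 at medians of -1.36 and 0.76.

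Receptors and carriers of lipoproteins and fatty acids differed in both directions. In the lipoprotein and yolk uptake list, 12 of 27 tested genes were higher in NC-F and 13 in NC-M. vldlr, of the receptor family that takes up vitellogenin in fish oocytes, had 110.3, 119.9 and 124 FPKM in NC-F and 2.48, 2.62 and 2.94 FPKM in NC-M (log2 difference -5.02, SE 0.13, adjusted p = 1.03e-06). lrp13, an oocyte lipoprotein receptor of fish, had 126, 116 and 135 against 1.6, 1.69 and 3.35 FPKM. fabp7a, a fatty acid binding protein, was on the testis side, with 5.21, 6.26 and 5.67 FPKM in NC-F and 352, 1306 and 873 FPKM in NC-M (log2 difference 6.79, SE 0.46, adjusted p = 3.68e-05). fabp4b, of the same family, was among the 10 most abundant ovary genes, with 4912, 4621 and 3768 FPKM in NC-F and 68.1, 53.2 and 26.2 FPKM in NC-M.

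The ovary's somatic genes were few and split. foxl2a, the transcription factor that keeps follicle cells female, had 17.2, 20.6 and 28.5 FPKM in NC-F and 0.1, 0.1 and 0.19 FPKM in NC-M (log2 difference -4.33, SE 0.23, adjusted p = 1.52e-05). hsd17b1, an enzyme that makes oestradiol from oestrone, had 21.6, 30.8 and 35.9 against 0.86, 0.55 and 0.98 FPKM (log2 difference -4.06, SE 0.24, adjusted p = 2.29e-05). runx1, which in mouse acts beside Foxl2, had 5.45, 5.82 and 4.97 against 0.4, 0.25 and 0.11 FPKM. In these 3 genes the lowest ovary library was above the highest testis library, which largely follows from differences of this size and adds no further evidence. Of the 12 tested genes of this list, 4 were higher in NC-F and 4 in NC-M (4 and 6 without NC-M 3). The inhibin and activin subunit genes were on the testis side: inha had 14.2, 16.7 and 21.3 FPKM in NC-F and 133, 168 and 95.8 FPKM in NC-M (log2 difference 2.84, SE 0.25, adjusted p = 0.000104), and inhbaa had 0.08, 0.1 and 0.05 and 10.4, 9.57 and 17 FPKM. fstl3, whose product binds activin, was at 2.93, 3.81 and 3.88 FPKM in NC-F and 13.4, 25 and 45 FPKM in NC-M (log2 difference 2.51, SE 0.41, adjusted p = 0.00151). The aromatase gene cyp19a1a was not analysed here.

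Of 23 tested testis fate and somatic genes, 15 were higher in NC-M and 2 in NC-F, with a median of 1.35 (18 and 2, median 1.75, without NC-M 3). Of those tested, 7 reached 1 FPKM only in NC-M and so could pass the filter only through it. Among the other 16, 8 (50.0%, against 30.7% of such genes in all) were higher in NC-M and 2 in NC-F, with a median of 0.869. dmrt1 differed by 5.81 (SE 0.16, adjusted p = 1.07e-06), and its relative dmrt3a had 0.06, 0 and 0.15 FPKM in NC-F and 29.8, 17.8 and 13.9 FPKM in NC-M. insl3, a peptide hormone of Leydig cells, was listed at 0 in all NC-F libraries and at 42.6, 40.8 and 66.5 FPKM in NC-M (adjusted p = 5.74e-06). Transcription factors of the early gonad were also higher in the testis. gata4 had 2.02, 2.26 and 3.31 against 39.8, 34 and 18.4 FPKM, wt1a 4.42, 3.85 and 5.13 against 35.2, 36.7 and 37.1 FPKM, and wt1b 4.02, 3.88 and 4.33 against 87.3, 119 and 32.2 FPKM. wt1a was even across the testis libraries, whereas gata4 and wt1b were lowest in NC-M 3. cldn11a, which encodes a tight junction protein that Sertoli cells make in mammals, had 9.91, 12.6 and 17.9 FPKM in NC-F and 168, 192 and 112 FPKM in NC-M (log2 difference 3.46, SE 0.28, adjusted p = 7.46e-05).

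The exceptions on this list were also fate genes. amh, the anti-Müllerian hormone of Sertoli and follicle cells, had 8.83, 10.4 and 11.4 FPKM in NC-F and 22.2, 59.7 and 13.5 FPKM in NC-M, and was not called (log2 difference 1.29, SE 0.50, adjusted p = 0.0511), but was called without NC-M 3. sox9a, a Sertoli factor, had 5.4, 6.08 and 5.28 FPKM in NC-F and 3.74, 4.55 and 0.83 FPKM in NC-M and was not called (adjusted p = 0.11). NC-M 3 was the lowest testis library for both genes. tcf21, a helix-loop-helix factor of mesenchyme, was higher in the ovary, with 143, 165 and 138 FPKM in NC-F and 1, 0.38 and 0.22 FPKM in NC-M (log2 difference -6.64, SE 0.22, adjusted p = 2.54e-06). sox3, a SoxB factor, was as well, at 56.4, 62 and 56.7 against 2.18, 3.73 and 2.3 FPKM (log2 difference -4.01, SE 0.20, adjusted p = 1.12e-05).

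**Figure D3:**
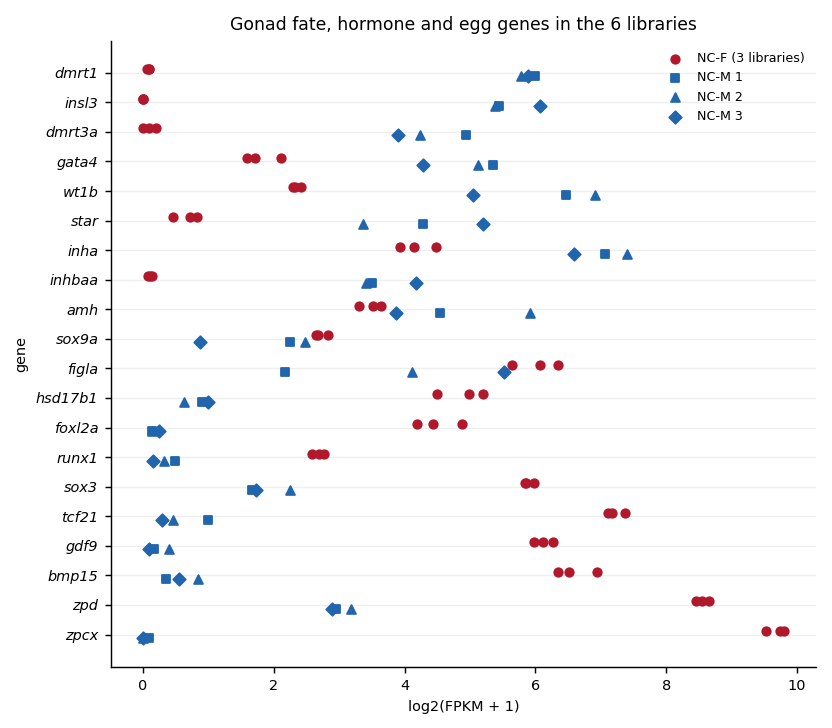
Levels of 20 gonad fate, hormone and egg genes on the log2(FPKM + 1) scale (horizontal axis) in the 3 NC-F libraries (red circles) and NC-M 1, 2 and 3 (blue square, triangle and diamond). Most genes separate the groups fully, whereas the points of amh and sox9a lie close together, and NC-M 3 of figla, at 44.9 FPKM, lies next to the ovary libraries.

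Of 24 tested steroid synthesis genes, 8 were higher in NC-M and 10 in NC-F (8 and 12 without NC-M 3), and members of the same enzyme and receptor families stood on both sides. star, whose product brings cholesterol into mitochondria, had 0.37, 0.77 and 0.64 FPKM in NC-F and 18.5, 9.33 and 35.5 FPKM in NC-M (log2 difference 3.62, SE 0.45, adjusted p = 0.000443). fdxr, which passes electrons to mitochondrial P450 enzymes, had 2.28, 2.06 and 2.59 against 16.2, 14.5 and 20.1 FPKM. hsd17b3, the enzyme that in mammals makes testosterone from androstenedione, had 0.07, 0.17 and 0.15 against 4.63, 2.16 and 2.07 FPKM (log2 difference 1.75, SE 0.26, adjusted p = 0.000975). hsd17b4 of the same family, a peroxisomal enzyme in mammals, had 41.3, 48.2 and 49.5 against 317, 331 and 233 FPKM, and scarb2a, of the scavenger receptor family, 3.11, 4.62 and 4.43 against 24.9, 34.2 and 27.1 FPKM. These 5 called genes were higher in every testis library than in any ovary library. Such a separation largely follows from large called differences and adds no further evidence. Its share among all genes was not counted. On the ovary side, scarb1, the HDL receptor, had 241, 244 and 254 FPKM in NC-F and 18, 19.2 and 15 FPKM in NC-M (log2 difference -3.76, SE 0.14, adjusted p = 3.90e-06). hsd17b12a, of an enzyme family that also elongates fatty acids, had 94.6, 112 and 106 against 0.33, 0.87 and 0.2 FPKM. srd5a1, a steroid 5-alpha-reductase gene, and hsd3b1, a 3-beta-hydroxysteroid dehydrogenase gene, differed by -3.28 and -1.28 as NC-M minus NC-F. The genes cyp11a1 and cyp17a1 were not analysed here.

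Of 41 tested receptors for hormones and growth factors, 27 were higher in NC-M and 5 in NC-F (28 and 6 without NC-M 3), but 10 reached 1 FPKM only in NC-M and 3 only in NC-F. Among the other 28, 17 (60.7%, against 30.7%) were higher in NC-M and 2 in NC-F. pgr, the nuclear progestin receptor, had 6.98, 6.15 and 5.1 FPKM in NC-F and 103, 134 and 71.8 FPKM in NC-M (log2 difference 3.84, SE 0.25, adjusted p = 3.33e-05). prlra, a prolactin receptor, had 0.07, 0.15 and 0.08 against 27.9, 23.4 and 12.1 FPKM, and bmpr1bb, a type I BMP receptor, 1.37, 1.24 and 1.29 against 65.8, 59.5 and 22.2 FPKM. lhcgr, the receptor for luteinizing hormone, had 1.55, 1.59 and 0.77 FPKM in NC-F and 8.75, 19.1 and 7.83 FPKM in NC-M (log2 difference 2.4, SE 0.36, adjusted p = 0.00103). paqr8, a membrane progestin receptor that in fish takes part in the resumption of oocyte meiosis, was the main exception, with 31.9, 31.9 and 33.7 FPKM in NC-F and 0.29, 0.79 and 0.5 FPKM in NC-M (log2 difference -4.47, SE 0.19, adjusted p = 6.35e-06). The nuclear receptor pgr and the membrane receptor paqr8 thus stood on different sides.

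Germline genes of the 2 gonads overlapped in part. Of 22 tested germline stem cell and RNA-binding genes, 9 were higher in each sex. nanos3 had 79.2, 73.6 and 78.6 FPKM in NC-F and 0, 0.41 and 0 FPKM in NC-M, whereas nanos1, of the same RNA-binding family, had 0.55, 0.69 and 1.12 against 64.3, 50.01 and 38.2 FPKM (log2 difference 4.84, SE 0.24, adjusted p = 1.28e-05). ddx4, the germ cell helicase Vasa, was high in both and higher in the testis, at 46.1, 50.5 and 58.8 against 188, 320 and 463 FPKM (log2 difference 2.53, SE 0.33, adjusted p = 0.000511). dnd1, which protects germ cell mRNA, was higher in the ovary, at 51.2, 48.8 and 53.5 against 2.51, 5.08 and 2.27 FPKM. Among 22 piRNA pathway genes, which silence transposons in germ cells, 12 were higher in NC-M and 3 in NC-F (1 without NC-F 1 or NC-F 3). tdrd9, a helicase of that pathway, had 11.3, 10.1 and 7.77 FPKM in NC-F and 52.4, 66.6 and 64.8 FPKM in NC-M (log2 difference 2.55, SE 0.18, adjusted p = 4.75e-05). piwil2, a Piwi protein gene, was close to the threshold, at 58.3, 57.8 and 55.9 against 26.3, 47 and 40.02 FPKM (log2 difference -0.63, SE 0.22, adjusted p = 0.0376), and was not called when any 1 NC-F library was left out.

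Of 40 tested meiosis genes, 21 (52.5%, against 44.7% of all genes) were higher in NC-M and 6 in NC-F, with a median of 1.05. The counts were 20 and 9 without NC-M 3, and 4 in NC-F without any 1 NC-F library or NC-M 2. Of the 40, 5 reached 1 FPKM only in NC-M and 1 only in NC-F. Among the other 34, 16 (47.1%) were higher in NC-M and 5 (14.7%) in NC-F, against 30.7% and 34.4% of such genes in all. hormad1, an axis protein of meiotic chromosomes, had 1.39, 1.67 and 2.27 FPKM in NC-F and 123, 172 and 386 FPKM in NC-M (log2 difference 6.2, SE 0.42, adjusted p = 3.65e-05). dmc1, the recombinase of meiosis, had 0, 0.01 and 0 against 21.7, 30.4 and 143 FPKM, and smc1b, a meiotic cohesin, 0.03, 0.06 and 0.15 against 23.4, 41 and 76.5 FPKM. sycp3, of the synaptonemal complex, had 8.47, 6.89 and 5.97 FPKM in NC-F and 136, 226 and 414 FPKM in NC-M (log2 difference 4.87, SE 0.39, adjusted p = 7.28e-05). In these 4 genes NC-M 3 was the highest library. sycp2l, a relative of a synaptonemal complex gene, was higher in the ovary, at 24.6, 21.6 and 24.8 against 0.9, 0.88 and 0.3 FPKM (log2 difference -3.89, SE 0.22, adjusted p = 1.84e-05), and so was mei4, a partner in making meiotic DNA breaks, at 75.6, 79.7 and 77.9 against 11.9, 12.8 and 27.2 FPKM.

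Of 73 tested genes for cilia and flagella associated, radial spoke and fibre proteins, 58 were higher in NC-M and 5 in NC-F, a median of 3.07, against 44.7% and 30.4% of all genes. Of those tested, 36 reached 1 FPKM only in NC-M and so had to differ. Among the other 37, 22 (59.5%, against 30.7% of such genes in all) were higher in NC-M and 5 in NC-F. Leaving out single libraries moved the second count from 2 (without any 1 NC-F library or NC-M 1; 3 without NC-M 2) to 9 (without NC-M 3). odf3b, a protein of sperm tail outer fibres, had 0.07, 0 and 0.07 FPKM in NC-F and 439, 309 and 461 FPKM in NC-M (log2 difference 8.57, SE 0.19, adjusted p = 4.80e-07). The radial spoke genes rsph14 and rsph1 had 431, 478 and 345 and 211, 344 and 298 FPKM in NC-M 1 to 3, and under 0.5 FPKM in each NC-F library. saxo2, which stabilises axonemal microtubules, had 0.1, 0 and 0.22 against 134, 154 and 276 FPKM. These 4 genes were high in all 3 testis libraries, unlike cfap157, another cilia and flagella associated gene, at 5.44, 10.5 and 103 FPKM. The symbol stem cfap had the highest median of all 127 stems with at least 10 tested genes, 3.59. Of its 28 genes, 21 were higher in NC-M and 1 in NC-F. The stem shares genes with the list above. Its counts and median include any genes that reached 1 FPKM only in NC-M, so the rank is not separate evidence.

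Axonemal dynein arms, the motors of the tail, gave 24 genes higher in NC-M and 2 in NC-F of 31 tested (25 and 4 without NC-M 3), with a median of 2.72, and 16 of the 31 reached 1 FPKM only in NC-M. Among the 14 dynein arm genes limited to neither gonad, 8 were higher in NC-M and 1 in NC-F. ccdc103, a dynein arm attachment factor, had 12.1, 10.9 and 15.9 FPKM in NC-F and 858, 927 and 771 FPKM in NC-M (log2 difference 5.94, SE 0.18, adjusted p = 1.61e-06). dnah5, a heavy chain of the outer arm, had 0.06, 0.05 and 0.11 against 32.2, 44.4 and 18 FPKM, and dnali1, a light intermediate chain, 0.56, 0.67 and 0.48 against 28.4, 20.2 and 160.3 FPKM. dnah5 was lowest and dnali1 highest in NC-M 3. Genes of intraflagellar transport and the BBSome, which carry cargo in cilia, were closer to the background: 15 of 35 were higher in NC-M and 5 in NC-F, but 17 and 13 without NC-M 3. wdr35, of the transport train, had 2.79, 3.07 and 3.52 FPKM in NC-F and 9.87, 16.3 and 49.1 FPKM in NC-M (log2 difference 2.36, SE 0.54, adjusted p = 0.00643). ift52, of the same train, was higher in the ovary, with 252, 213 and 159 FPKM in NC-F and 3.9, 3.98 and 17.2 FPKM in NC-M (log2 difference -4.75, SE 0.53, adjusted p = 0.000273).

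Genes of spermatid differentiation gave 17 members higher in NC-M and 5 in NC-F of 30 tested (17 and 7 without NC-M 3), and 9 and 4 among the 21 that were limited to neither gonad. meig1, needed for sperm tail formation in mouse, had 4.79, 4.2 and 3.94 FPKM in NC-F and 243, 265 and 648 FPKM in NC-M (log2 difference 6.04, SE 0.38, adjusted p = 2.82e-05). spaca4l, named for its likeness to a sperm acrosome gene, was higher in the ovary, at 28.9, 31.9 and 27.9 against 0.26, 0.53 and 0.18 FPKM (log2 difference -4.54, SE 0.18, adjusted p = 5.54e-06).

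Of 66 M phase and spindle genes, 36 were higher in NC-F and 5 in NC-M, with a median of -1.29 against 0.42 for all genes. Without NC-M 3, in which they were highest among the testis libraries, 49 were higher in NC-F and 5 in NC-M, and without NC-M 1 the second count was 8. ccnb1, the M phase cyclin that fish oocytes use in maturation, had 2698, 2588 and 2312 FPKM in NC-F and 19.5, 23.6 and 152 FPKM in NC-M (log2 difference -5.89, SE 0.74, adjusted p = 0.000467). ccna2, an S and M phase cyclin, had 1168, 1096 and 979.8 against 7.77, 9.87 and 48.9 FPKM. wee2, an oocyte kinase that holds Cdk1 inactive, had 206, 200.4 and 211 FPKM in NC-F and 3.48, 3.93 and 3.03 FPKM in NC-M (log2 difference -5.53, SE 0.13, adjusted p = 6.80e-07). NC-M 3 was well above NC-M 1 and 2 for both cyclins but not for wee2. ccnd3, a D-type cyclin of G1, was on the testis side, at 0.1, 0.04 and 0.07 against 9.33, 13.8 and 75.1 FPKM. Another 25 M phase genes were not called. DNA replication genes gave 21 of 46 higher in NC-F and 8 in NC-M (27 and 9 without NC-M 3). With all libraries, 17 were not called. tk1, which supplies thymidine nucleotides, had 1111, 1128 and 940.5 FPKM in NC-F and 15.4, 18.2 and 39.7 FPKM in NC-M (log2 difference -5.5, SE 0.35, adjusted p = 2.92e-05). mcm2, of the replicative helicase, went the other way, at 25.4, 25.8 and 26.7 against 49.7, 72.3 and 67.2 FPKM.

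Of 73 mitochondrial ribosomal protein genes, 64 were higher in NC-F and 4 in NC-M (65 and 4 without NC-M 3; 2 in NC-M without NC-F 2 or NC-M 2), with a median of -1.36. They summed to 9690, 9845 and 9502 FPKM in NC-F and to 2821, 3286 and 3394 FPKM in NC-M. mrpl47 had 420.4, 401 and 337 FPKM in NC-F and 13.4, 13.4 and 14.9 FPKM in NC-M (log2 difference -4.7, SE 0.14, adjusted p = 1.65e-06), and mrps2 166, 164 and 162 against 7.34, 8.83 and 8.89 FPKM. The count of cytosolic ribosomal protein genes on the testis side rested on which libraries were used. Of 74, 23 (31.1%) were higher in NC-M and 3 (4.05%) in NC-F, with a median of 0.76. Of all genes, 44.7% and 30.4% were. All 74 were limited to neither gonad, and of such genes in all, 30.7% and 34.4% were higher in NC-M and NC-F. Without NC-M 3 the counts were 68 and 4 and the median 1.15, and without any other single library the first count lay between 8 (without NC-F 2) and 12 (without NC-M 1). rps14 had 782, 796 and 927 FPKM in NC-F and 4089, 4783 and 1958 FPKM in NC-M (log2 difference 2.02, SE 0.37, adjusted p = 0.00251). rps27l, a paralog of a small subunit gene, was even among testis libraries, at 48.2, 48.8 and 48.5 against 427, 420.1 and 331 FPKM (log2 difference 2.98, SE 0.15, adjusted p = 1.22e-05). Ribosomal protein genes have many near-identical copies and pseudogenes, so single values are uncertain.

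Of 88 genes that build ribosomes or transcribe their RNA, 51 were higher in NC-F and 8 in NC-M (56 and 13 without NC-M 3), with a median of -0.83. polr3k, a subunit of RNA polymerase III, had 359, 359 and 334 FPKM in NC-F and 24.2, 31.6 and 17 FPKM in NC-M (log2 difference -3.84, SE 0.23, adjusted p = 2.37e-05). polr3g, the alternative subunit found in mammalian stem cells, had 47.2, 49 and 43.8 against 3.23, 2.63 and 1.79 FPKM, whereas polr3glb, named for the other form of that subunit, had 4.13, 3.63 and 4.2 against 19.9, 47.6 and 33.8 FPKM. These 2 genes were thus higher in different gonads. Among translation factors, 17 of 58 were higher in NC-M and 21 in NC-F, but 24 and 21 without NC-M 3, so the larger side changed. eif4a2, an RNA helicase of initiation, had 3.47, 3.25 and 3.64 FPKM in NC-F and 54.5, 51.2 and 66.7 FPKM in NC-M (log2 difference 3.71, SE 0.16, adjusted p = 6.66e-06), and eef2b, an elongation factor gene, 7.39, 7.84 and 10.3 against 141, 126 and 84.4 FPKM. eif4ea and eif4e1c, which bind the mRNA cap, differed by -2.78 and -2.91 as NC-M minus NC-F.

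The respiratory chain differed between its nuclear and mitochondrial genes. Of 65 nuclear genes, 36 were higher in NC-F and 6 in NC-M (42 and 7 without NC-M 3; 3 in NC-M without NC-F 1), with a median of -0.66. ndufaf4, an assembly factor of complex I, had 221, 237 and 219.8 FPKM in NC-F and 11.5, 13.5 and 11.8 FPKM in NC-M (log2 difference -4.1, SE 0.13, adjusted p = 1.81e-06). The 13 protein genes of the mitochondrial genome made up 1.08%, 1.08% and 1.15% of all FPKM in NC-F and 12.8%, 12.9% and 17.9% in NC-M. COX2, a subunit of cytochrome oxidase, had 1182, 1245 and 1258 FPKM in NC-F and 35110.4, 34777 and 38676 FPKM in NC-M, a 29.5-fold difference of the means (log2 difference 4.88, SE 0.29, adjusted p = 2.49e-05). CYTB, of complex III, had 334, 325 and 345 against 9713, 9787 and 9644 FPKM. Of the 13 genes, 12 were called higher in NC-M, against 44.7% of all genes tested. The exception, ND1, was listed at 0 in NC-M 1 and 2 and at 709 FPKM in NC-M 3, beside 183, 180.4 and 166 FPKM in NC-F. ND1 was also listed at 0 in every library labelled HT-F, and at 209.5, 360.5 and 391.7 FPKM in those labelled IC-F. Such a 0 can be a failed estimate, which was not tested. At day 0 the share was 8.38% to 10.1% in the testis libraries and 2.00% to 2.80% in the ovary libraries, and at 28 °C it was 1.49% to 2.05% and 1.24% to 2.04%. The part of RNA quality, which the labels do not give, was not tested.

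**Figure D4:**
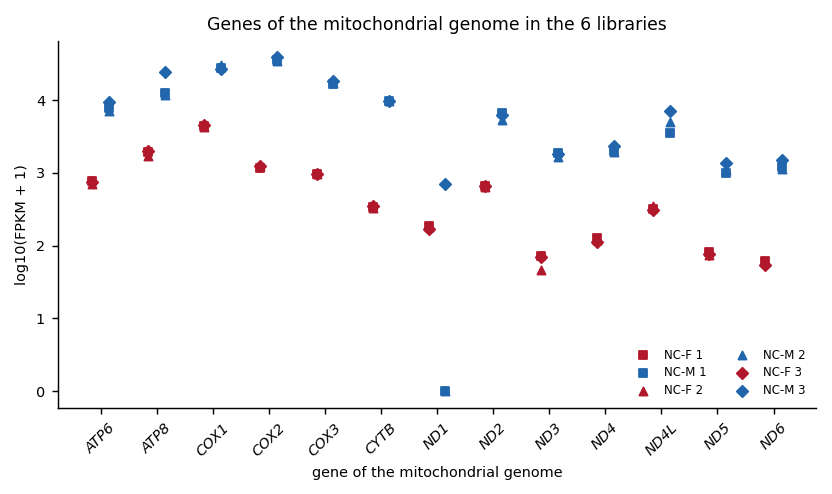
Levels of the 13 protein genes of the mitochondrial genome on a log10(FPKM + 1) axis in the 3 NC-F (red) and 3 NC-M (blue) libraries, 1 marker per library. All 13 genes but ND1 were called higher in NC-M, against 44.7% of all genes tested, and ND1 is listed at 0 in NC-M 1 and 2.

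In glycolysis, 12 of 22 genes were higher in NC-M and 8 in NC-F. gapdhs, the sperm form of glyceraldehyde phosphate dehydrogenase in mammals, had 24.3, 27.7 and 32.2 FPKM in NC-F and 641, 505 and 488 FPKM in NC-M (log2 difference 4.23, SE 0.17, adjusted p = 6.01e-06). ldha and ldhba, lactate dehydrogenase genes, differed by 3.91 and 4.35, whereas tpi1b and pgk1, enzymes of the middle of the pathway, were higher in the ovary, with tpi1b at 311, 311 and 371 against 94.4, 56.8 and 69.2 FPKM. Cholesterol genes gave 10 of 26 in each direction. hmgcra, the reductase that limits cholesterol synthesis, had 4.73, 5.27 and 5.79 FPKM in NC-F and 922, 1048 and 452 FPKM in NC-M (log2 difference 6.93, SE 0.32, adjusted p = 9.26e-06). nsdhl, of a late step, had 42.1, 38.9 and 46.9 against 2.4, 4.11 and 6.96 FPKM. Of 40 antioxidant genes, 21 (52.5%) were higher in NC-F and 13 (32.5%) in NC-M (25 and 13 without NC-M 3). gpx3, a secreted glutathione peroxidase, had 289, 276 and 336 FPKM in NC-F and 3483, 3631 and 4012 FPKM in NC-M (log2 difference 3.62, SE 0.19, adjusted p = 1.41e-05), whereas gpx1a, the cytosolic form, had 226, 217 and 206 against 26, 23.2 and 6.89 FPKM.

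Proteasome genes gave 11 of 46 higher in NC-M and 14 in NC-F, at or below the background on both sides. The second count lay between 8 (without NC-F 1, NC-F 2 or NC-M 2; 9 without NC-F 3) and 22 (without NC-M 3), and the first was 10 without NC-M 3. Called members on the testis side included special forms. psma6l had 0.4, 0.52 and 0.26 FPKM in NC-F and 57.2, 53.5 and 94.4 FPKM in NC-M (log2 difference 5.6, SE 0.25, adjusted p = 8.34e-06), and psmb10, an inducible subunit of the immunoproteasome, 1.23, 1.14 and 0.88 against 22.5, 28.5 and 15.5 FPKM. psmg4, a chaperone of proteasome assembly, was on the ovary side, at 122, 124 and 116 against 8.62, 11.8 and 6.69 FPKM (log2 difference -3.63, SE 0.20, adjusted p = 1.95e-05). The CCT chaperonin, which folds tubulin and actin, gave 5 of 7 genes higher in NC-M and 1 in NC-F (2 without NC-M 3), led by cct3 at 67.5, 66.6 and 83.7 against 311, 273 and 351 FPKM.

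Of 15 smooth muscle genes, 12 were higher in NC-M and 1 in NC-F, of 16 endothelium genes 13 and 1, of 17 myeloid genes 13 and 1 (2 in NC-F without NC-M 2), and of 24 extracellular matrix genes 18 and 5. Of these, 3, 6, 7 and 7 reached 1 FPKM only in NC-M. Among members limited to neither gonad, 9 of 12 smooth muscle, 7 of 10 endothelium, 6 of 10 myeloid and 11 of 17 extracellular matrix genes were higher in NC-M, against 30.7%. Smooth muscle genes summed to 549, 633 and 603 FPKM in NC-F and to 1386, 1134 and 1316 FPKM in NC-M. acta2, smooth muscle actin, had 8, 27.5 and 8.25 FPKM in NC-F and 293, 206 and 308 FPKM in NC-M (log2 difference 4.32, SE 0.47, adjusted p = 0.000242). NC-F 2 was the highest ovary library for this gene. kdrl, a vascular endothelial growth factor receptor, had 1.15, 1.78 and 1.82 against 17.5, 15.4 and 15.7 FPKM, and ptprc, the leukocyte marker CD45, 2.19, 2.53 and 1.86 against 21.1, 26 and 15 FPKM (log2 difference 2.73, SE 0.24, adjusted p = 9.88e-05). Endothelium genes summed to 162, 166 and 146 FPKM in NC-M 1, 2 and 3 and to 28.3 to 34.4 FPKM in NC-F. Extracellular matrix genes summed to 421, 507 and 280.4 FPKM in NC-M 1, 2 and 3 and to 358 to 406 FPKM in NC-F, so NC-M 3 lay under every ovary library for that list. nid2a, of the basement membrane, was higher in the ovary, at 219, 224 and 188 against 4.04, 6.49 and 7.88 FPKM. The part of these cell types in the other results was not tested. Of 11 liver and yolk precursor genes, 3 passed the filter and all 3 were higher in NC-M, 2 of them at 1 FPKM only there, where the list summed to 56.4 to 92 FPKM against 4.85 to 6.6 FPKM in NC-F. Most of this was rbp4, a retinol carrier, at 6.12, 4.29 and 5.78 against 81.7, 49.3 and 55.3 FPKM, while the vitellogenin gene vtg3 was at 0.05 to 0.08 FPKM in NC-F and 0.01 to 0.47 FPKM in NC-M (named after its values were seen).

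Single chromatin, splicing and channel genes also differed. Of 74 chromatin genes, 38 (51.4%) were higher in NC-M and 19 (25.7%) in NC-F (39 and 21 without NC-M 3). Of all genes, 44.7% and 30.4% were. Of the 74, 11 reached 1 FPKM only in NC-M. Among the other 63, 27 (42.9%) were higher in NC-M and 19 (30.2%) in NC-F, against 30.7% and 34.4% of such genes in all. mbd2, a reader of methylated DNA, had 0.45, 0.68 and 0.64 FPKM in NC-F and 24.5, 47.6 and 28 FPKM in NC-M (log2 difference 4.38, SE 0.27, adjusted p = 2.89e-05), and suz12b, of Polycomb complex 2, 3.08, 3.8 and 3.48 against 53.2, 58.3 and 37.6 FPKM. kmt5ab, a histone H4 lysine methyltransferase gene, was at 291, 302 and 241 against 1.38, 3.48 and 3.07 FPKM (log2 difference -6.31, SE 0.26, adjusted p = 6.27e-06). Of 49 splicing factor genes, 21 (42.9%) were higher in NC-M and 10 (20.4%) in NC-F (23 and 16 without NC-M 3). With all libraries, both shares were below those of all genes. Among the 48 limited to neither gonad, 20 (41.7%) were higher in NC-M and 10 (20.8%) in NC-F. Of such genes in all, 30.7% and 34.4% were, so only the NC-F share was below this background. sf3b1, of the U2 particle, had 18.8, 17.4 and 17.3 FPKM in NC-F and 190.1, 186 and 119.9 FPKM in NC-M (log2 difference 3.11, SE 0.20, adjusted p = 3.40e-05), whereas u2af1 had 474, 446 and 485 against 84.6, 97.3 and 223 FPKM.

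Of 56 voltage-gated and cyclic nucleotide channel genes, 40 were higher in NC-M and 12 in NC-F, but 32 of the 56 reached 1 FPKM only in NC-M and 7 only in NC-F. Among the other 17, 8 were higher in NC-M and 5 in NC-F. kcnq5a, a potassium channel, had 0.04, 0.03 and 0.04 FPKM in NC-F and 199.7, 149 and 129 FPKM in NC-M (log2 difference 7.25, SE 0.20, adjusted p = 1.09e-06). The largest testis difference among genes with a symbol was that of another channel, the GABA receptor subunit gabrd, with 0.13, 0.22 and 0.47 FPKM in NC-F and 1300.2, 920.4 and 660.2 FPKM in NC-M (log2 difference 9.51, SE 0.26, adjusted p = 1.24e-06). Both channel genes were high in all 3 testis libraries. Among interferon and JAK-STAT genes, 14 of 24 were higher in NC-M and 5 in NC-F, led by dhx58, a cytosolic RNA sensor of the RIG-I family, at 1.3, 1.07 and 1.29 against 95, 108 and 62.7 FPKM (log2 difference 5.3, SE 0.23, adjusted p = 7.18e-06). Signalling genes of the WNT list gave 13 of 31 in NC-M and 12 in NC-F. rspo4, an R-spondin, had 21.6, 21.1 and 19.4 FPKM in NC-F and was listed at 0 in all NC-M libraries. Claudin and connexin genes gave 6 of 12 each, but 5 of the 12 reached 1 FPKM only in NC-M and 3 only in NC-F. cldn7b had 308, 339 and 304 FPKM in NC-F and 0.94, 1.46 and 0.85 FPKM in NC-M (log2 difference -7.27, SE 0.16, adjusted p = 4.80e-07), while cldnk had 0, 0.21 and 0.59 against 47.7, 21.3 and 29.9 FPKM.

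**Figure D5:**
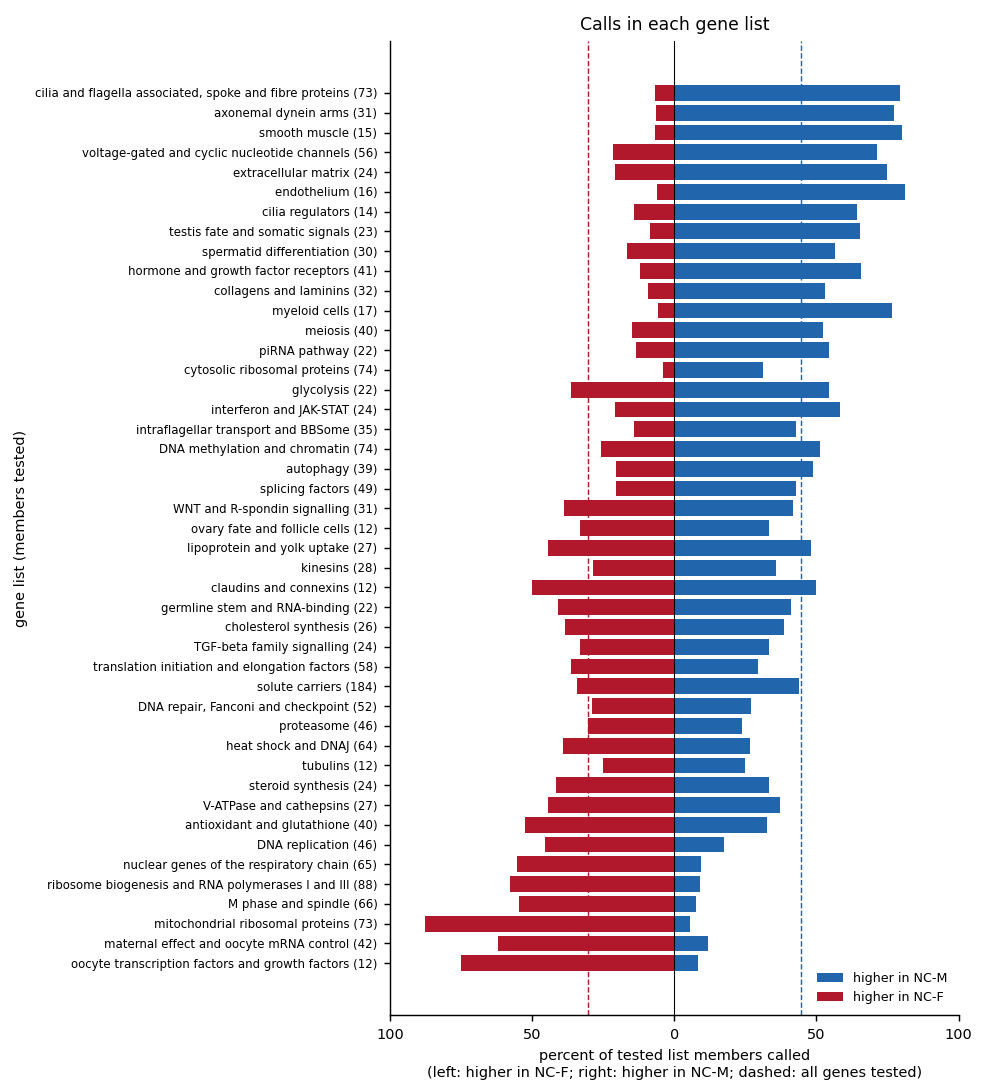
Percent of tested members called higher in NC-M (blue, to the right) or higher in NC-F (red, to the left) for the gene lists with at least 10 tested members, ordered by median difference; dashed lines mark all genes tested, 44.7% and 30.4%. Sperm-tail and dynein-arm genes lie at the top, with 79.5% and 77.4% higher in NC-M, and mitochondrial ribosomal protein genes near the bottom, with 87.7% higher in NC-F. Of the tail and dynein-arm genes, 36 of 73 and 16 of 31 passed the filter only through NC-M and so had to differ. Among members limited to neither gonad, the shares were 59.5% and 57.1%, against 30.7% of such genes in all.

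Of 593 pairs of tested genes whose symbols differ only in a final a or b, both members were called in 314 (53.0%). In 131 pairs (22.1%) both were higher in NC-M, in 63 (10.6%) both were higher in NC-F, and in 120 (20.2%) the members went opposite ways. Opposite pairs were fewer than pairs that shared a side. The largest such split was that of jam2a and jam2b, junctional adhesion molecules: jam2a had 1, 1.62 and 1.07 FPKM in NC-F and 158, 169.9 and 78.4 FPKM in NC-M, and jam2b 20.9, 25.7 and 18.9 and 0.12, 0.37 and 0 FPKM. stmn1a and stmn1b, stathmins that destabilise microtubules, split as clearly. stmn1a had 1630.02, 1468 and 1263 against 85, 87.9 and 197 FPKM, and stmn1b 0.13, 0.41 and 0.15 against 153, 333 and 441 FPKM. marcksl1b was a testis gene at 1.19, 1.36 and 1.65 against 169.7, 177 and 72.6 FPKM, and marcksl1a was higher in the ovary (-2.16). glula, a glutamine synthetase gene, was higher in the ovary (-4.12), and glulb was higher in the testis (3.19), with NC-M 3 at 41.6 FPKM and the other testis libraries under 5 FPKM. Reads shared by near-identical copies could have been divided between them by the authors' counting.

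Transcripts found in one gonad only were more numerous in the testis. At 1 FPKM or more in all libraries of one group and 0.1 FPKM or less in all of the other, there were 1652 entries for NC-M and 381 for NC-F. Most lacked a gene symbol: 315 of the NC-M set and 43 of the NC-F set had one. The same one-gonad pattern at day 0 was held by 918 of the 1652 (55.6%, which is 36.2% of the day 0 testis set) and by 171 of the 381 (44.9%, which is 40.9% of the day 0 ovary set). At 28 °C it was held by 553 (33.5%, or 44.9% of that testis set) and 143 (37.5%, or 38.2% of that ovary set).

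The testis side at day 0 and at 28 °C was set by gonad genes of those same libraries, against their letters. Read in this way, the sex differences of single genes mostly kept their side. Between the libraries labelled IC-F and IC-M at day 0, 53.3% of genes tested were higher in the first and 33.5% in the second. Of 12802 genes called there and at day 28, 12369 (96.6%) had the same side. Only genes called in both comparisons were counted, and the side was set from these data, so high agreement was partly built in. At 28 °C, where 50.0% and 30.6% were called in the libraries labelled HT-F and HT-M, the count was 11706 of 12104 (96.7%). Across genes, the log2 differences correlated at r = 0.887 with day 0 and 0.872 with 28 °C, and genes are not independent replicates.

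The size of the difference changed in many genes. A test of the difference between the day 28 difference at 20 °C and that at day 0, fitted on all 18 libraries and 25184 genes, called 35.4%: 4212 genes (16.7%) moved towards the testis side and 4707 (18.7%) towards the ovary side. Sperm tail genes moved towards the ovary side more often than this background, in 53 of 74 cilia and flagella associated genes (2 towards the testis, median change -1.92), 26 of 33 dynein arm genes (1, -2.23), 25 of 35 genes of intraflagellar transport (1, -1.77) and 19 of 31 spermatid genes (1, -1.24). M phase genes moved the same way in 28 of 66 (4, -1.11). Without NC-M 3 these counts towards the ovary were 65, 29, 31, 20 and 47, and leaving out single other libraries gave as few as 17 for M phase genes. Sperm tail genes summed to 416 to 447 FPKM in NC-F and 432 to 499.5 FPKM in the libraries labelled IC-M, whereas the testis sums of 13452 to 13789 FPKM at day 0 stood against 2763 to 7213 FPKM in NC-M. hsf5, a heat shock factor of spermatocytes in mammals, is an example, with 141, 135 and 147 FPKM in the libraries labelled IC-F and 1.11, 0.77 and 89 FPKM in NC-M. NC-M 3 was nearer to the day 0 testis libraries than NC-M 1 and 2 were, and the change was not called without NC-F 2, NC-F 3, NC-M 1 or NC-M 2. Without NC-M 3, the 2 counts over all genes rose to 6263 and 6319.

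The same test against 28 °C, which used the same 6 NC libraries, called 32.6% of genes, 4103 (16.3%) towards the testis side and 4118 (16.4%) towards the ovary side at 20 °C. These counts were 6388 and 6647 without NC-M 3. Lists that were more to the ovary side at 20 °C than at 28 °C included 47 of 73 mitochondrial ribosomal protein genes (1 towards the testis, median change -0.63), 36 of 65 nuclear respiratory chain genes (0, -0.72), 24 of 46 proteasome genes (1, -0.77), 21 of 35 genes of intraflagellar transport (0, -1.24), 26 of 66 M phase genes (2, -1.08) and 24 of 74 cilia and flagella associated genes (3, -0.86). Without NC-M 3 these counts were 51, 47, 32, 32, 53 and 53, and without single other libraries they fell to as few as 40, 29, 21, 13, 14 and 8. Genes of the mitochondrial genome moved the other way, 12 of 13 with a median of 3.94, and 11 of 13 against day 0 with a median of 2.16. COX2 had 1484, 1256 and 831 FPKM in the libraries labelled HT-F and 1219, 1619 and 1368 FPKM in those labelled HT-M, so the ovary and testis libraries overlapped at 28 °C, whereas they were 4.88 log2 units apart at 20 °C (difference of the differences 5.15, adjusted p = 1.47e-08). lhcgr changed side: it had 2.02, 2.04 and 2.39 FPKM in the testis libraries and 35.8, 51.4 and 44.2 FPKM in the ovary libraries at 28 °C, and was higher in the testis at 20 °C (difference of the differences 6.22, adjusted p = 4.22e-08). tgm8, a transglutaminase, was among the largest changes against day 0. It had 193, 167 and 113 FPKM in NC-M but 2.97, 2.36 and 4.29 FPKM in the libraries labelled IC-F, while the ovary libraries stayed under 13 FPKM at both times (difference of the differences 6.1, adjusted p = 1.42e-06).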

How the data were processed

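The deposited table gave FPKM per gene for 18 gonad libraries to 2 decimals, per the file headers. The sources used here do not name the aligner, the counter or the build. Per the labels, RNA was extracted with Trizol and 0.4 ug of total RNA entered standard Illumina libraries. Depth is unknown, so no counting interval is given.

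Of 43106 entries, 5484 carried only an assembled-transcript (MSTRG) number and 21063 only a LOC number; 34962 matched a RefSeq symbol (assembly ASM1485139v1, used for names only). Reads of a locus may be divided between a named gene and such an entry, which was not tested.

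From the authors' FPKM, log2(FPKM + 1) was fitted with limma 3.58.1 in R 4.3.3 (empirical Bayes with trend), for genes with at least 1 FPKM in at least 3 of 6 libraries (3 of 18 for the difference of sex differences). Benjamini-Hochberg adjusted p under 0.05 made a call. The scripts were tested on simulated data. Of 100 genes changed by 1 log2 unit, 22 were recovered, and of 100 changed by 2 log2 units, 66 were. There were 7 false calls among the other genes. A gene that was not called may therefore still differ. Tables and figures used Python 3.11.15 and matplotlib 3.10.9.

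Gene lists and members were chosen with earlier results of these data known, and symbol patterns for ribosomal and heat shock genes were trimmed of kinases and other misfits after the table was read. Named genes were, by rule, the 15 largest differences per direction, up to 4 called members per list and direction, all tested fate, steroid and egg coat genes, the 10 most abundant genes per group, the 8 most opposed paralog pairs, the 8 largest changes per direction against day 0 or 28 °C, and the 8 genes most variable within a group. Alternatives were the pseudocount, filter, scaling, fit of 18 libraries, replicate block, a fold minimum, each library left out, and library weights, which were chosen after NC-M 3 was seen to stand apart.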

Additional observations from a re-analysis of the deposited data

Results flagged for a closer look

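The tests of a difference between sex differences picked out the results below, and 36 values were listed in all. Values are NC-M minus NC-F at day 28 and 20 °C, less the testis minus ovary difference of the other libraries, on the log2(FPKM + 1) scale, and none was weighed for a cause. Against day 0, 4212 genes moved towards the testis side and 4707 towards the ovary side; against 28 °C, 4103 and 4118 did.

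Against day 0, the largest shifts towards the ovary side were those of nek10 (-5.35), odad4 (-5.04), ccnb2 (-4.41), arhgap39 (-4.3), palm1a (-4.27), zgc_109986 (-4.26), hsf5 (-4.19) and si_ch211-153b23.5 (-4.11). The largest towards the testis side were those of birc5b (8.4), nudt2 (6.38), tgm8 (6.1), tmprss2 (5.37), rab11fip5a (4.8), wdr1 (4.62), ccnt1 (4.5) and sdad1 (4.49). nek10 had 15.3, 20.5 and 15.7 FPKM in NC-F and 2.45, 1.81 and 11.4 FPKM in NC-M, but 0.13, 0.44 and 0.15 and 13.3, 11.7 and 13.3 FPKM in the ovary and testis libraries of day 0, labelled IC-M and IC-F, so the side changed. birc5b differed mainly in the ovary, with 2.48, 3.61 and 1.73 FPKM in NC-F and 1183, 1329 and 925 FPKM in the libraries labelled IC-M. odad4 was listed at 0 in all ovary libraries and in NC-M 1 and 2, at 45.1 FPKM in NC-M 3, and at 117, 115 and 118 FPKM in the libraries labelled IC-F.

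Set beside 28 °C, the ovary side gained most in mettl3 (-7.81), mrps15 (-6.05), nek10 (-4.74), acat2 (-4.55), myl2b (-4.46), bcl2l1 (-4.1), rasd1 (-4.04) and si_ch211-153b23.5 (-4.04), and the testis side in birc5b (8.98), lhcgr (6.22), plekhg2 (5.4), tmem41aa (5.19), mrm3a (5.15), COX2 (5.15), frem2a (4.67) and ND3 (4.57). mettl3, the catalytic subunit of the RNA N6-adenosine methyltransferase, had 21, 16.7 and 26.1 FPKM in NC-F and was listed at 0 in NC-M, whereas at 28 °C the testis libraries, labelled HT-F, had 18.4, 7.5 and 8.5 FPKM and the ovary libraries 0, 0 and 0.46 FPKM. plekhg2 ranged from 6.74 to 143 FPKM among the libraries labelled HT-F.

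Exact zeros occur among these genes (odad4, mettl3, acat2), and a 0 in such values can be a failed estimate.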

How the results depend on the processing

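Counts of called genes depended most on NC-M 3 and on the filter. Leaving out single libraries gave 8249 to 9771 genes higher in NC-M and 5424 to 7167 higher in NC-F, 628 to 818 and 510 to 711 list members, 87 to 150 opposite paralog pairs, 3392 to 6263 and 3919 to 6319 changes against day 0 towards testis and ovary, and 3180 to 6388 and 3076 to 6647 against 28 °C, the highest each time without NC-M 3. A filter at 5 FPKM left 4817 genes higher in NC-M and 5146 higher in NC-F, so the balance between the gonads turned. List members called were 482 in NC-M (from 727) and 564 in NC-F (from 604), and opposite pairs were 67. Fewer genes were tested with this filter, and the loss of calls was mostly on the NC-M side. Library weights gave 10134 and 7208 calls, no filter 12473 and 6470, a pseudocount of 0.1 FPKM 9208 and 6187, scaling 9526 and 6001, the fit of 18 libraries 9856 and 6784, and a minimum of 1 log2 unit 7899 and 4874. Scaling moved the median of all genes from 0.42 to 0.50. With the replicate number as a block there were 8976 and 6007 calls. Deviations of same-numbered libraries from their group means correlated at r of -0.03, -0.01 and 0.04. With 3 libraries per group and NC-M 3 apart, these values cannot tell whether the numbers pair the libraries.

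Of the tests on named genes under these alternatives, 5548 kept direction and call, 113 lost a call, 45 gained one and 16 changed sign. The sign changes were in genes not called with all libraries: gnl2 (0.20 with all libraries, -0.0247 without NC-M 3, up to 0.47 without other libraries), hsd11b1la (0.12, -0.15 without NC-M 2 to 0.39 without NC-M 3), hsd20b2 (-0.03, 0.64 and called with library weights, 0.0557 scaled, -0.44 without NC-M 2 to 0.45 without NC-M 3, and 0.0839 without NC-F 1), phb (2.86e-05, -0.0420 with weights, -0.000527 with the smaller pseudocount, -0.30 without NC-M 3 to 0.26 without NC-M 1), rpsa (0.002, -0.23 without NC-M 1 to 0.39 without NC-M 3) and srd5a3 (-0.07, 0.0429 with weights, 0.0165 scaled). The cause was not tested. Of the tests of changed differences in named genes, 316 kept direction and call and 4 lost the call, all of hsf5.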

Other observations

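Single transport and signalling genes outside the comparisons above also differed between testis and ovary at 20 °C. Of 184 solute carrier genes tested, 81 (44.0%) were higher in NC-M and 63 (34.2%) in NC-F (83 and 72 without NC-M 3). These shares were near the 44.7% and 30.4% of all genes. Of the 184, 35 reached 1 FPKM only in NC-M and 3 only in NC-F. Among the other 146, 46 (31.5%) were higher in NC-M and 60 (41.1%) in NC-F, against 30.7% and 34.4% of such genes in all. slc30a8, a zinc transporter, had 137, 144 and 152 FPKM in NC-F and 2.88, 3.02 and 1.94 FPKM in NC-M (log2 difference -5.34, SE 0.17, adjusted p = 1.96e-06), and slc24a4b, a sodium-calcium exchanger, 100.01, 112 and 94.9 against 2.55, 0.42 and 0.98 FPKM. slc25a5, a mitochondrial ADP/ATP carrier, was higher in the testis, with 8.94, 8.96 and 7.3 against 175, 155 and 229 FPKM (log2 difference 4.3, SE 0.19, adjusted p = 7.22e-06). TGF-beta family genes gave 8 of 24 in each direction (11 in NC-M without NC-M 3): smad7, an inhibitor of the pathway, had 47.3, 51.3 and 49.6 FPKM in NC-F and 4.34, 4.37 and 2.83 FPKM in NC-M (log2 difference -3.39, SE 0.18, adjusted p = 1.58e-05), and id1, a target of BMP signals, 19.6, 18.9 and 23.6 against 75.4, 83.1 and 168 FPKM. Of 39 autophagy genes, 19 were higher in NC-M and 8 in NC-F (23 and 8 without NC-M 3). Of 27 V-ATPase and cathepsin genes, 10 and 12 were (10 and 14 without NC-M 3). ctsz, a lysosomal protease, had 82.7, 87.3 and 94.7 against 11.3, 14.1 and 13.7 FPKM, and atp6v1ab, a pump subunit, 17.9, 16.3 and 20.7 against 169.9, 159.8 and 136 FPKM. Collagen and laminin genes gave 17 of 32 in NC-M and 3 in NC-F, led by col4a3 of basement membranes at 0.09, 0.01 and 0.11 against 5.07, 8.74 and 16.5 FPKM.

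DNA repair genes gave 14 of 52 higher in NC-M and 15 in NC-F (15 and 20 without NC-M 3). The mismatch repair relatives msh4 and msh5, which act in meiotic crossing over, were on the testis side, with msh5 at 1.27, 0.68 and 1.58 against 22.6, 42.7 and 62.8 FPKM (log2 difference 4.24, SE 0.39, adjusted p = 0.000119), and rad51ap1, a helper of homologous repair, was on the ovary side at 127, 129 and 128 against 14.7, 15.5 and 38.9 FPKM (log2 difference -2.56, SE 0.36, adjusted p = 0.000756). Heat shock and DNAJ genes gave 17 of 64 in NC-M and 25 in NC-F (16 and 32 without NC-M 3). Small heat shock proteins were among those higher in the testis, such as hspb6 at 1.56, 4.06 and 1.59 against 66.9, 49.7 and 57.6 FPKM and hspb8 at 0.45, 0.64 and 0.81 against 13.9, 11.1 and 15.3 FPKM. Of 28 kinesin genes, 10 were higher in NC-M and 8 in NC-F (12 and 13 without NC-M 3). kif22, a chromosome motor, had 406, 417 and 397 FPKM in NC-F and 10.4, 15.9 and 24 FPKM in NC-M (log2 difference -4.59, SE 0.28, adjusted p = 2.67e-05). Tubulin genes gave 3 of 12 each (5 in NC-F without NC-M 3), with tuba1a at 340.4, 343 and 359 against 82.2, 87.5 and 72.5 FPKM, and septin genes 4 of 9 in NC-M and 3 in NC-F. Among cilia regulators, 9 of 14 were higher in NC-M and 2 in NC-F (1 without NC-F 3, 3 without NC-M 3). Of the 14, 4 reached 1 FPKM only in NC-M, and among the other 10, 5 were higher in NC-M and 2 in NC-F. The transcription factor rfx2 of this list was at 2.67, 2.9 and 2.86 against 11.4, 13.6 and 47.3 FPKM.

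In small marker lists, 4 of 7 red blood cell genes were higher in NC-M and 3 in NC-F. Skeletal muscle gave 5 and 1 of 7, lymphocytes 3 and 0 of 4, and egg activation 3 and 1 of 4. Of those tested, 2 red blood cell, 5 skeletal muscle and 2 lymphocyte genes reached 1 FPKM only in NC-M. Without them the counts were 2 and 3 of 5, 1 and 1 of 2, and 1 and 0 of 2. Lists this short cannot be told from the 44.7% and 30.4% of all genes. Red blood cell genes summed to 458, 112 and 163 FPKM in NC-M 1, 2 and 3 and to 91.0, 98.0 and 160 FPKM in NC-F 1, 2 and 3. Of the symbol stems with at least 10 tested genes, timm, of mitochondrial import, had the lowest median at -1.80, with 11 of 13 genes higher in NC-F and 2 in NC-M, and exosc, of the RNA exosome, had 9 of 10 and 0. cacna, of calcium channels, had 11 of 13 higher in NC-M and 2 in NC-F. Stem counts were not made without genes that reached 1 FPKM in one gonad only.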
